A study of Mus musculus with 12 samples.

Results

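Regenerative and reserve crypt cell markers were followed through the whole jejunum of wild-type mice and of mice labelled as Fgfr1op knockouts. The set held 8 genes: Clu, Ly6a, Cd44, Sox9, Msi1, Lrig1, Prom1 and Gja1. They were chosen by name for their use as markers, and each was read from the probe set that carries its symbol alone. The choice of markers and gene lists was made with earlier results of these data known. Their counts beside the shares over all genes are therefore a description, not an unselected comparison. Of the 8, 7 had such a probe set among 19938 genes, each with 1 probe set and 0 shared with another symbol; Ly6a, which encodes the surface protein Sca-1, is not analysed here.

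There were 12 arrays of whole jejunum: 2 wild-type (WT) and 2 inducible Fgfr1op knockout (KO) samples at day 6, and as many at days 9 and 12 post-tamoxifen. The labels number the samples of a group without saying that they came from separate mice, so p-values measure the spread between these samples. Tamoxifen was injected intraperitoneally for 5 days at a dose of 75 mg/kg, per the labels' protocols. The same dose and days are listed for the WT and the KO samples, and no array is listed without the drug. The sources used here do not name the driver of the recombinase or the age. Effects of the recombinase, or of the drug together with it, therefore cannot be told apart from those of gene loss. RNA was taken from whole tissue, so muscle, stroma and immune cells contribute to every value, and more cells of a type cannot be told apart from more RNA per cell. Values are log2 signals, on which a difference of 1 is a doubling of signal, and signals were not tested against background.

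The small intestine renews its lining from crypts. In a healthy crypt the base is held by Lgr5-marked columnar stem cells, while slower or more committed cells, called reserve cells, can return to stem cell behaviour when those are lost. After injury the epithelium passes through a regenerative state with genes of the fetal gut. Clu marks the revival stem cells of that state, and Ly6a and Gja1 are used as markers of fetal-like epithelium. Cd44, Sox9, Msi1, Lrig1 and Prom1 are markers of crypt progenitors whose expression reaches beyond the columnar stem cells.

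The labelled tissue was checked against its markers. The enterocyte markers Alpi, Lct and Sis had WT signals of 12.34 to 12.55, 11.5 to 12.41 and 13.1 to 13.53. The targeted gene, listed under its current symbol Cep43, averaged 0.26 lower in KO over the days on the log2 scale (SE 0.06, limma adjusted p = 0.00713), with differences of -0.31, -0.39 and -0.09 at days 6, 9 and 12, of which that at day 9 passed. At day 12 it read 6.83 and 7.04 in WT and 6.97 and 6.74 in KO, so the groups overlapped and its signal did not separate the day 12 labels. The deleted part of the gene is not known here, so the probe set may lie outside it. Over all genes, 1.03% passed for KO against WT at day 6, 29.7% at day 9 and 27.3% at day 12, at an adjusted p under 0.05 by limma. At day 6, 0.597% of all genes rose and 0.431% fell, at day 9 12.6% rose and 17.1% fell, and at day 12 13.7% rose and 13.7% fell. Smooth muscle signal differed between arrays: the mean of 12 marker genes ran from 8.1 to 9.44 in WT and from 7.67 to 9.73 in KO.

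The promoters of the markers are shown first, as a description of sequence. Among those shown, Cd44 and Gja1 rose in KO, while Lrig1 and Prom1 did not pass in any comparison of KO with WT. Of the 8 markers, 4 had a promoter in the RefSeq table for GRCm38.p6. Each sequence runs from 250 bases before to 50 bases after an annotated start, in the direction of the gene. Capitals mark matches, on either strand, to the core of the TEAD factors (GGAATG), to the core of the TCF/LEF factors (CTTTGA or CTTTGT) or to the AP-1 element (TGANTCA); the letters of these motifs do not overlap one another here.
Cd44: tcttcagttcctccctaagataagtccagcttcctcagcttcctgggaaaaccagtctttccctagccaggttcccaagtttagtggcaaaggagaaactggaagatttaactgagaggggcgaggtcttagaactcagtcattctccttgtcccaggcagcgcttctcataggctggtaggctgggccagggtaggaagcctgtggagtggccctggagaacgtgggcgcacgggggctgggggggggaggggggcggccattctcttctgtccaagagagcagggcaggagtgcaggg
Gja1: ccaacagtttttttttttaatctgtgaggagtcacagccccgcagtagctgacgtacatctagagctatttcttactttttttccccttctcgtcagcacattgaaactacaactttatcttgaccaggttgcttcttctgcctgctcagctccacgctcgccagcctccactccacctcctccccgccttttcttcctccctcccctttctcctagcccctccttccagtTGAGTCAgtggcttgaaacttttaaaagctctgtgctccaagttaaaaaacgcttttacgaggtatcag
Lrig1: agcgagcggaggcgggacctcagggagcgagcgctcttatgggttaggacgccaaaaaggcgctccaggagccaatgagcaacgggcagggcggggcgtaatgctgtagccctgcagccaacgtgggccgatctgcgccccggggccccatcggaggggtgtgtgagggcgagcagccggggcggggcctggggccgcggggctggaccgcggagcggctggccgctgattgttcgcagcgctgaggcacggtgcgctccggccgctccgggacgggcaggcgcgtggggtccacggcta
Prom1: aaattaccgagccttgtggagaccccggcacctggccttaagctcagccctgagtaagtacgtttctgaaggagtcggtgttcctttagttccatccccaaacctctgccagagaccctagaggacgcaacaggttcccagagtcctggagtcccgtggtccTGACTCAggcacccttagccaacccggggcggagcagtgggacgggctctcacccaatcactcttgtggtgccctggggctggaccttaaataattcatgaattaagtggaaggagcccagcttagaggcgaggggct
The Cd44 sequence lies at chr2:102901616-102901915 and the Lrig1 sequence at chr6:94700096-94700395, both on the minus strand, and neither holds any of the motifs. The Gja1 sequence, at chr10:56377050-56377349 on the plus strand, holds an AP-1 element that begins at position -19, counted back from the start. The Prom1 sequence, at chr5:44101687-44101986 on the minus strand, is that of the outer of 2 listed starts and holds an AP-1 element that begins at position -88. The window of the other Prom1 start, not printed, holds an AP-1 element at position -189 and a TCF/LEF core, CTTTGA, at position 9 after the start. Of 32851 promoters of the same length, 7.81% hold the AP-1 element, 14.7% the TEAD core, and 16.0% and 18.7% the 2 forms of the TCF/LEF core. The Lrig1 sequence is 73.0% G or C with 35 CG pairs, against 47.7% and 8 for Gja1, 58.0% and 6 for Cd44, 57.0% and 10 for Prom1, and medians of 52.7% and 7 over all promoters. These letters describe the windows only. Binding was not measured, and the part of these motifs in the KO differences was not tested.

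Cd44, Clu, Sox9, Msi1 and Gja1 were higher in KO at days 9 and 12, and only Cd44 passed at day 6. Of the 7 markers, 1 rose and 6 did not pass at day 6, where 0.597% of all genes rose. At day 9, 5 rose, 0 fell and 2 did not pass, and day 12 gave the same counts for the same 5 genes, beside 12.6% and 13.7% of all genes that rose on those days. The medians of the 7 differences were 0.00, 0.62 and 0.95 at the 3 days on the log2 scale, against 0.00, 0.02 and 0.02 over all genes. Averaged over days, the same 5 genes were higher, as were 15.7% of all genes. Lrig1 and Prom1 did not pass at any of the 3 days. The count at day 9 is 3 without WT day 9 replicate 1, and that at day 12 is 3 without WT day 12 replicate 1 or either KO array of day 12.

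**Figure D1:**
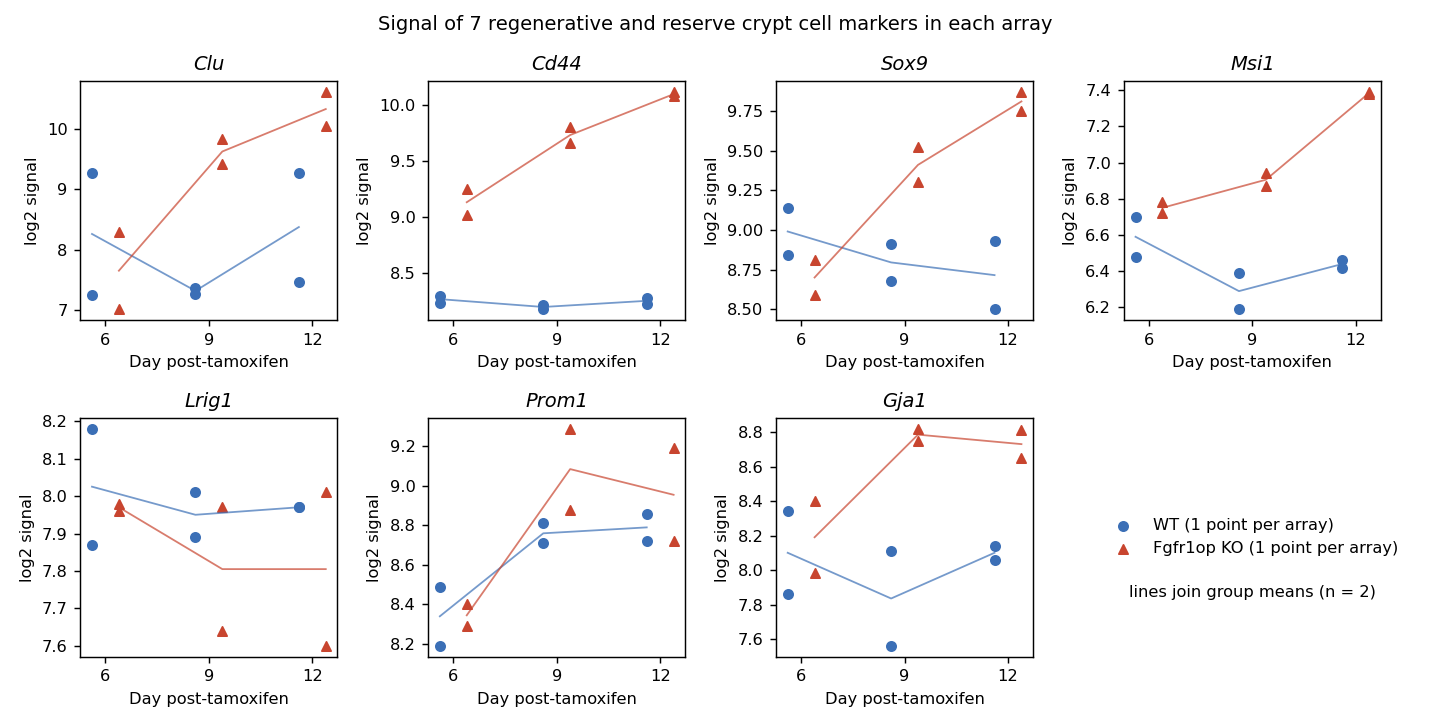
Log2 signal (vertical axis) of the 7 measured markers in each of 12 arrays, by day post-tamoxifen (horizontal axis), with blue circles for WT, red triangles for KO and lines joining the group means (n = 2). The 6 KO arrays of Cd44 lie at 9.02 to 10.12, above the WT arrays at 8.18 to 8.3, while the WT arrays of Clu reach 9.28 at days 6 and 12 and those of Lrig1 overlap KO at every day.

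Cd44, the receptor for hyaluronan on crypt progenitors and on leukocytes, rose first and spread least. Its WT signals were 8.24 and 8.30 at day 6, 8.18 and 8.22 at day 9, and 8.23 and 8.28 at day 12. Its KO signals were 9.25 and 9.02 at day 6, 9.66 and 9.81 at day 9, and 10.12 and 10.08 at day 12. Every KO array lay above every WT array, as was so for 4.07% of all genes.

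Cd44 was 1.82-fold higher in KO at day 6 (log2 0.87, SE 0.10, adjusted p = 0.00252), where it ranked 41 from the top of all genes by difference. It was 2.89-fold higher at day 9 (log2 1.53, SE 0.10) and 3.59-fold at day 12 (log2 1.85, SE 0.10, n = 2 per genotype, limma adjusted p = 1.67e-07). Rising at each of the 3 days was seen in 0.401% of all genes. Averaged over days the difference was 1.41 (SE 0.06), and an exact permutation test within days, two-sided, gave p = 0.00926, the smallest it can give. The difference itself grew between days: the genotype by day interaction passed (limma F test adjusted p = 0.00198), as for 18.5% of all genes. From day 6 to day 9 the difference grew by 0.66 (SE 0.14, adjusted p = 0.0109), and from day 9 to day 12 by 0.31 (SE 0.14, adjusted p = 0.219), which did not pass. The growth to day 9 was not called without KO day 6 replicate 2 (0.55, adjusted p = 0.0523), with the smooth muscle covariate (0.73, adjusted p = 0.0909) or without a pair of WT arrays, day 6 replicate 2 and day 12 replicate 2 (0.64, adjusted p = 0.0599). Over the 7 markers the difference grew for 2 from day 6 to day 9, for 0 from day 9 to day 12 and for 3 from day 6 to day 12, where 3.52%, 4.06% and 5.64% of all genes did.

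Lists of immune cells, which also carry Cd44, went in different directions. Over all genes, 12.6% rose and 17.1% fell at day 9, and 13.7% rose and 13.7% fell at day 12. Of 6 general leukocyte genes, 0 rose at any of the 3 days, and 2 fell at day 12. Its mean signal was 8.15 to 9.03 over the WT arrays and 8.06 to 8.60 over the KO arrays. T cell and intraepithelial lymphocyte genes fell in 6 of 8 at day 9 and in 7 of 8 at day 12. Of 8 macrophage and neutrophil genes, 3 rose and 0 fell at day 9, the neutrophil genes S100a8 (0.69, SE 0.11), S100a9 (0.56, SE 0.11) and Cxcr2 (0.42, SE 0.13), and 1 rose and 2 fell at day 12. That list's mean was 6.72 to 6.90 over the WT arrays, and in KO 6.74 and 6.73 at day 6, 7.15 and 7.19 at day 9, and 6.89 and 6.78 at day 12. The part of these cells in the Cd44 difference was not tested. Cd44 was not called at day 6 with the smooth muscle list as a covariate (log2 0.81, adjusted p = 0.174). The smooth muscle mean at day 6 was 9.44 and 8.77 in the WT arrays and lower in the KO arrays, at 7.82 and 7.67.

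Sox9, a transcription factor of crypt progenitors, Paneth cells and tuft cells, was higher in KO at days 9 and 12 and did not pass at day 6. In WT the signals were 9.14 and 8.84 at day 6, 8.68 and 8.91 at day 9, and 8.93 and 8.50 at day 12. In KO they were 8.81 and 8.59, then 9.30 and 9.52, then 9.87 and 9.75. Both KO arrays lay below both WT arrays at day 6, as for 20.9% of all genes. They lay above them at days 9 and 12, as for 34.6% and 31.6%.

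The Sox9 difference did not pass at day 6, at -0.29 (SE 0.16, limma adjusted p = 0.55). It was 0.61 at day 9 (SE 0.16, adjusted p = 0.0133) and 1.10 at day 12 (SE 0.16, adjusted p = 3.24e-04). The change of the difference from day 6 to day 12 was 1.39 (SE 0.23, limma adjusted p = 0.00197), and the interaction passed (adjusted p = 0.00452). The average over days, which includes the negative day 6 value that did not pass, was 0.48 (SE 0.09, limma adjusted p = 0.00188). Its exact permutation p was 0.0741. Of 7 Paneth cell genes, 1 fell at day 9 and 6 fell at day 12, with 0 that rose at either day. Of 7 tuft cell genes, 4 fell and 0 rose at day 9, and 5 fell and 1 rose at day 12. Falls were called for 17.1% of all genes at day 9 and 13.7% at day 12. Sox9 was not called at day 9 when KO replicate 2 of that day was left out (0.51, adjusted p = 0.0835) or when WT replicate 1 was (0.50, adjusted p = 0.107).

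Msi1, an RNA-binding protein of intestinal progenitors, rose later and by less, at a lower signal. The WT arrays read 6.48 and 6.70 at day 6, 6.39 and 6.19 at day 9, and 6.42 and 6.46 at day 12. The KO arrays read 6.78 and 6.72, 6.87 and 6.94, and 7.39 and 7.38. Every KO array lay above every WT array, as for 4.07% of all genes, the nearest pair being 6.72 and 6.70.

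The Msi1 difference was 0.16 at day 6 (SE 0.10, adjusted p = 0.636), 0.62 at day 9 (SE 0.10, adjusted p = 8.78e-04) and 0.95 at day 12 (SE 0.10, adjusted p = 3.38e-05). The interaction passed (limma F test adjusted p = 0.00896), and the difference was 0.79 larger at day 12 than at day 6 (SE 0.14, adjusted p = 0.00397). Within KO, Msi1 rose from day 9 to day 12 by 0.48 (SE 0.10, adjusted p = 0.00778), while its change from day 6 to day 9 was 0.16 (adjusted p = 0.295). Averaged over days it was 0.58 higher in KO (SE 0.06), with an exact permutation p of 0.00926.

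Gja1, which encodes a gap junction protein, a connexin, of fetal-like epithelium, smooth muscle and stroma, was higher in KO at days 9 and 12. Its WT signals were 8.34 and 7.86 at day 6, 7.56 and 8.11 at day 9, and 8.14 and 8.06 at day 12. Its KO signals were 8.40 and 7.98, 8.75 and 8.82, and 8.65 and 8.81. The groups overlapped at day 6 and did not at days 9 and 12, where 34.6% and 31.6% of all genes lay above WT in the same way.

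The Gja1 difference was 0.09 at day 6 (SE 0.20, adjusted p = 0.934), 0.96 at day 9 (SE 0.20, adjusted p = 0.00382) and 0.64 at day 12 (SE 0.20, adjusted p = 0.0339). The average was 0.56 (SE 0.11), with an exact permutation p of 0.0185. The interaction did not pass (limma F test adjusted p = 0.111). The day 12 call ended with any of the 4 arrays of that day left out, at differences of 0.55 to 0.72 and adjusted p of 0.0603 to 0.147. It ended also with array weights (adjusted p = 0.0956), with the smooth muscle covariate (0.52, adjusted p = 0.0934) and with a covariate of B cell and follicle genes (0.51, adjusted p = 0.0639).

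Among cell types that also make Gja1, 0 of 12 smooth muscle genes passed at days 9 or 12, with list medians of 0.03 and 0.44. Within KO, 11 of the 12 rose from day 6 to day 12, as did 12.3% of all genes. For 8 of the 12 the KO minus WT difference grew over those days, as for 5.64% of all genes. With the smooth muscle covariate, the Gja1 rise in KO from day 6 to day 9 was 0.39 (limma adjusted p = 0.335). Of 8 fibroblast genes 4 rose and 0 fell at day 9, and likewise at day 12, with medians of 0.49 and 0.53 and a mean signal of 8.50 to 9.17 in WT arrays and 8.85 to 9.60 in KO arrays. Of 8 general epithelial genes 4 rose at day 9, with a median of 0.36, and 3 rose and 1 fell at day 12. Rises were called for 12.6% of all genes at day 9 and 13.7% at day 12. With the smooth muscle covariate the Gja1 difference at day 9 was 0.92 (adjusted p = 0.00397). The part of smooth muscle, fibroblasts and epithelium in the Gja1 difference was not tested beyond these values.

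**Figure D2:**
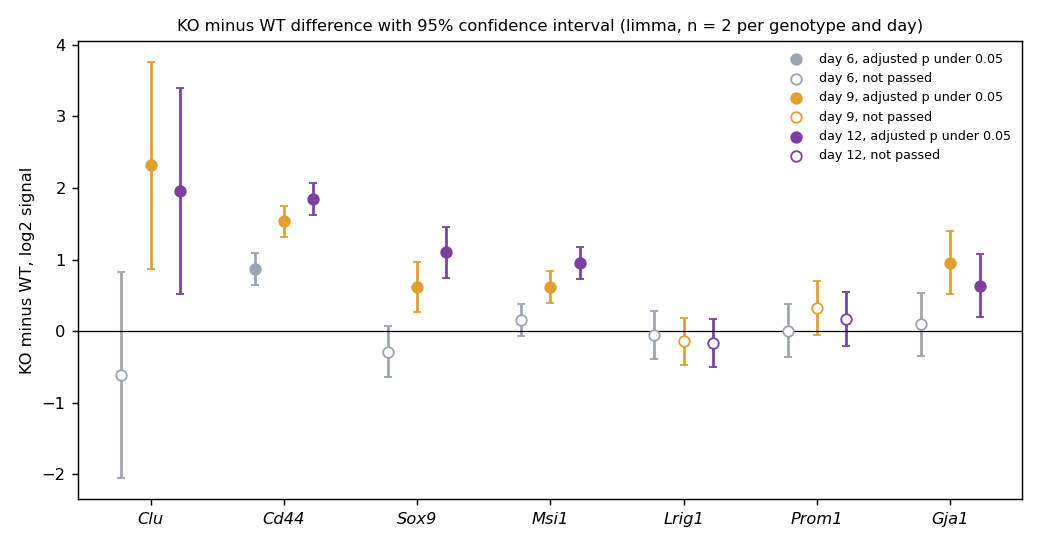
KO minus WT difference in log2 signal (vertical axis) for each marker (horizontal axis) at days 6 (grey), 9 (orange) and 12 (purple), with 95% confidence intervals from limma (n = 2 per genotype and day) and filled points where the adjusted p was under 0.05. Cd44 is filled at all 3 days, Clu, Sox9, Msi1 and Gja1 at days 9 and 12, and the Clu interval at day 9 runs from 0.87 to 3.76.

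Clu, the secreted chaperone clusterin that marks revival stem cells, had the largest difference of the 7 markers at day 9 and the widest spread. Its WT signals were 7.24 and 9.28 at day 6, 7.26 and 7.37 at day 9, and 7.47 and 9.28 at day 12. Its KO signals were 7.01 and 8.29, then 9.84 and 9.42, then 10.62 and 10.05. Both KO arrays lay above both WT arrays at days 9 and 12, as for 34.6% and 31.6% of all genes, and the groups overlapped at day 6.

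Clu was 4.97-fold higher in KO at day 9 (log2 2.31, SE 0.66, adjusted p = 0.0204), ranking 27 from the top of all genes, and 3.88-fold higher at day 12 (log2 1.96, SE 0.66, adjusted p = 0.0461). At day 6 the difference was -0.61 (SE 0.66, adjusted p = 0.828). The interaction did not pass (limma F test adjusted p = 0.0772), and the averaged difference of 1.22 (SE 0.38, adjusted p = 0.0281) had an exact permutation p of 0.102. The day 9 call ended without WT day 9 replicate 1 or 2 or KO day 9 replicate 1 (2.11 to 2.37, adjusted p of 0.0803 to 0.114), and with limma's trended, robust variance (adjusted p = 0.0978). The day 12 call ended without either KO array of that day, without any single array of day 9, and without WT day 12 replicate 1, where the difference was 1.05 (adjusted p = 0.364). It ended also with the trended, robust variance (adjusted p = 0.165), with array weights (adjusted p = 0.105) and with the smooth muscle covariate (2.06, adjusted p = 0.0665).

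The spread of Clu in WT ran beside lymphoid signal. B cells and the lymphoid follicles of the gut wall are present in some stretches of jejunum and absent from others, and the follicles' dendritic cells also make clusterin. A list of 9 measured genes of B cells and follicles, among them Ms4a1, Cr2 and Cxcl13, was drawn up after these values were seen. Its mean was 7.14 in WT day 6 replicate 2 and 7.03 in WT day 12 replicate 2, the 2 WT arrays with Clu at 9.28, and 5.38 to 5.57 in the other 4 WT arrays. In KO it was 5.42 and 6.2 at day 6, 6.72 and 5.52 at day 9, and 5.59 and 5.54 at day 12. Of the 9 genes, 0 passed for KO against WT at days 6, 9 or 12. Because the list was drawn up from the arrays in which Clu was high, these values give no independent test of its part in the Clu differences.

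**Figure D3:**
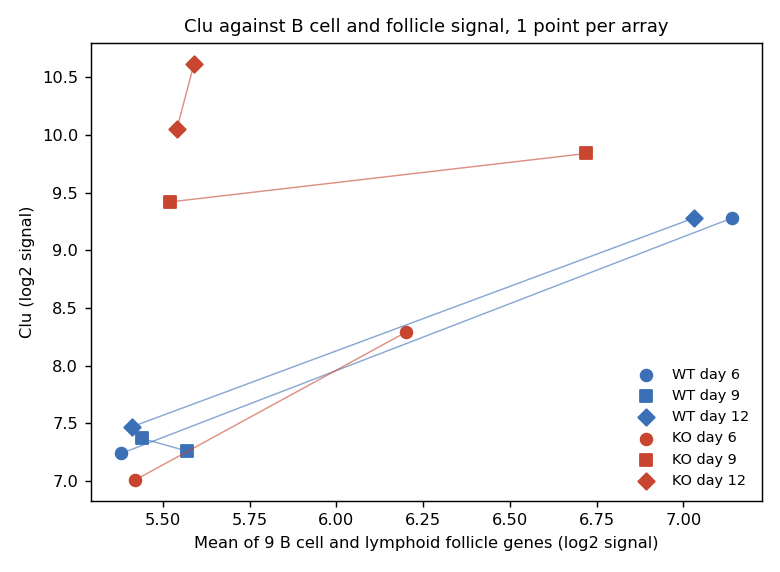
Clu log2 signal (vertical axis) against the mean log2 signal of 9 B cell and lymphoid follicle genes (horizontal axis), 1 point per array, blue for WT and red for KO, with circles, squares and diamonds for days 6, 9 and 12 and lines joining the 2 arrays of a group. The WT points with Clu at 9.28 lie at list means of 7.14 and 7.03, and the KO points of day 12 lie at 5.59 and 5.54 with Clu at 10.62 and 10.05.

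Lrig1, an inhibitor of growth factor receptors that marks quiescent crypt cells, did not pass in any comparison. In WT it read 8.18 and 7.87, 8.01 and 7.89, and 7.97 and 7.97 at days 6, 9 and 12. In KO it read 7.96 and 7.98, 7.97 and 7.64, and 8.01 and 7.60. The groups overlapped at each day.

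The Lrig1 differences were -0.05, -0.15 and -0.16 at the 3 days (SE 0.15 each). The 95% interval of the average, -0.12, ran from -0.31 to 0.07, which does not reach the size of the differences seen for Cd44, Msi1 or Gja1. An exact permutation test of the average gave p = 0.241.

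Prom1, the membrane protein prominin 1 of stem and transit cells, moved over days in KO, while its differences from WT did not pass. Its WT signals were 8.49 and 8.19, 8.81 and 8.71, and 8.72 and 8.86 at days 6, 9 and 12. Its KO signals were 8.29 and 8.40, 8.88 and 9.29, and 9.19 and 8.72. Both KO arrays lay above both WT arrays at day 9 only, as for 34.6% of all genes at that day.

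The Prom1 differences were 0.00, 0.32 and 0.17 (SE 0.17 each, limma adjusted p = 0.996, 0.185 and 0.553), and the average of 0.16 had a 95% interval from -0.05 to 0.38. From day 6 to day 9 Prom1 rose by 0.74 in KO (SE 0.17, adjusted p = 0.00933). With the smooth muscle covariate this rise did not pass (0.76, limma adjusted p = 0.0541). It was 0.69 without KO day 6 replicate 1 and 0.54 without KO day 9 replicate 2. In WT the same step was 0.42 (SE 0.17, adjusted p = 0.456), and the 2 steps differed by 0.32 (SE 0.24, adjusted p = 0.43). The 95% interval of that difference ran from -0.21 to 0.85. In WT, 0.0401% of all genes rose over this step.

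Over time some markers changed in KO, while changes in WT did not pass. In the F test over days, 5 of 7 markers passed in KO: Clu, Cd44, Sox9, Msi1 and Prom1. Of all genes, 37.6% did. Gja1 (limma F test adjusted p = 0.056) and Lrig1 (adjusted p = 0.596) did not pass. In WT 0 of 7 passed, where 0.0201% of all genes did. The direct test of a difference between the genotypes, the interaction, passed only for Cd44, Sox9 and Msi1. The 2 smallest unadjusted p in WT were 0.0383 for Prom1 and 0.0399 for Msi1. From day 6 to day 9 in KO, Clu (1.98, SE 0.66), Cd44 (0.60, SE 0.10), Sox9 (0.71, SE 0.16), Prom1 and Gja1 (0.60, SE 0.20) rose and 2 did not pass, beside 10% of all genes that rose. The count is 1 without KO day 9 replicate 2, 2 without KO day 6 replicate 2 and 3 without the other array of either day. From day 9 to day 12 in KO, Cd44 (0.37, SE 0.10, limma adjusted p = 0.0222) and Msi1 rose and 5 did not pass, beside 14.1% of all genes that rose. That count is 0 without KO day 9 replicate 1, and 1 without either KO array of day 12.

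The profiles of the rising markers were most alike in the pair Cd44 and Msi1, with a Pearson correlation of 0.92 over the 12 arrays. Cd44 correlated with Gja1 at 0.84 and with Sox9 at 0.79, and Clu with Msi1 at 0.77. These values describe arrays that share genotype and day, and a group shift alone makes them high. Within the 6 WT arrays the same pairs had correlations of 0.69 for Cd44 with Msi1, 0.30 for Cd44 with Gja1, -0.14 for Cd44 with Sox9 and 0.64 for Clu with Msi1. Over all pairs of markers in WT they ran from -0.72, for Msi1 with Prom1, to 0.88, for Clu with Cd44. Lrig1 had correlations of -0.28 to -0.51 with every other marker over the 12 arrays.

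The genes with the profile most like each marker, by Pearson correlation over 12 arrays among 17215 genes, differed between markers. Cd44 was closest to Gss, the glutathione synthetase (0.99), Ankrd22 (0.988) and Entr1 (0.986), and 475 genes lay above 0.9. Msi1 was closest to the cationic amino acid transporter Slc7a1 (0.972), Pgap1 (0.969) and Fbxw8 (0.961), with 223 genes above 0.9. Sox9 was closest to Xkr4 (0.955), the intermediate filament nestin, Nes (0.953), and Ankrd42 (0.947), and Gja1 to Medag (0.949), Tm4sf4 (0.938) and Atrnl1 (0.933). Clu had 3 genes above 0.9: Mfge8, a secreted protein that binds dying cells and is also made by follicular dendritic cells (0.96), Plxnc1 (0.906) and Anapc16 (0.901). Prom1 was closest to Samd14 (0.934), Gpx8 (0.925) and Lrrc74b (0.905). For Lrig1 no gene reached 0.9, the closest being Pdia5 (0.843), Dnajb8 (0.834) and Mrgpra6 (0.825).

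Other genes of the fetal-like and regenerative state rose with the markers. Of 21 measured members of that list, 1 rose at day 6, 15 rose and 3 fell at day 9, and 17 rose and 2 fell at day 12, with median differences of 0.17, 1.24 and 1.46. Beside them, 0.597% of all genes rose at day 6. At day 9 12.6% of all genes rose and 17.1% fell, and at day 12 13.7% rose and 13.7% fell. The cornified envelope protein Sprr1a (4.28 at day 9 and 4.34 at day 12, SE 0.35) and the acyltransferase Mboat1 (3.63 and 3.68, SE 0.14) led, with S100a6 (2.67) at day 9 and the interleukin 1 receptor antagonist Il1rn (3.88) at day 12. The membrane protein Emp1 fell at both days (-0.76 and -0.55, SE 0.18). Ly6e (-0.65) and Trp53inp1 (-0.49) fell at day 9, and Trp53inp1 was higher at day 12 (0.75, SE 0.13). Il33, an alarmin cytokine, rose at day 9 (1.36, SE 0.25) and fell at day 12 (-0.93).

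Reserve cell genes divided. Of 12 measured, 0 passed at day 6, 3 rose and 5 fell at day 9, and 4 rose and 3 fell at day 12, with medians of 0.01, -0.01 and -0.11. The shares over all genes were 12.6% and 17.1% at day 9 and 13.7% and 13.7% at day 12. The chromatin regulator Bmi1 (0.60 and 0.66, SE 0.11) and the homeodomain protein Hopx (0.54 and 0.92, SE 0.10), both used as markers of position above the crypt base, rose at days 9 and 12, as did the RNA-binding Mex3a (0.65 and 0.94, SE 0.18). Sox4, a transcription factor related to Sox9, rose at day 12 (1.01, SE 0.17). The telomerase gene Tert fell (-0.49 and -0.82, SE 0.09), as did the kinase Dclk1 of tuft cells (-0.83 and -1.20, SE 0.12) and Lratd1 (-0.83 and -0.78, SE 0.21). The receptor Lgr4 fell at day 9 (-0.78).

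Markers of the columnar stem cells at the crypt base went the other way. Of 16 measured, 0 passed at day 6, 1 rose and 11 fell at day 9, and 0 rose and 10 fell at day 12, with medians of -0.27, -0.81 and -0.65. Among all genes 17.1% fell at day 9 and 13.7% at day 12. Olfm4 (-4.80 and -6.61, SE 0.16), Lgr5 (-1.56 and -2.13, SE 0.16) and the water channel Aqp4 (-1.56 and -1.73, SE 0.12) fell most at day 9, and Axin2 (-1.73) was among the lowest at day 12. The growth factor binding protein Igfbp4 rose at day 9 (1.37, SE 0.25) and stood at 0.67 at day 12 (adjusted p = 0.0721).

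Cd44 and Sox9 are also known as targets of Wnt signalling, and the list of Wnt targets did not rise with them. Of 17 measured, 0 passed at day 6, 0 rose and 5 fell at day 9, and 1 rose and 5 fell at day 12, with medians of -0.11, -0.02 and -0.07. Among all genes 12.6% rose and 17.1% fell at day 9, and 13.7% rose and 13.7% fell at day 12. Lgr5, the feedback inhibitor Axin2 (-1.08 and -1.73) and the cyclin Ccnd1 (-1.27 and -0.71, SE 0.19) fell, and the transcription factor Myc rose at day 12 (0.53, SE 0.12). Several of these genes also stand in the list of columnar stem cell markers.

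Partners of Cd44 changed in part. Of 15 measured genes for hyaluronan and other ligands or linkers of Cd44, 2 rose at day 6, 5 rose and 2 fell at day 9, and 7 rose and 2 fell at day 12, with medians of 0.13, 0.24 and 0.22. Rises were called for 0.597%, 12.6% and 13.7% of all genes at the 3 days, and falls for 17.1% and 13.7% at days 9 and 12. The matrix proteoglycan Vcan (1.63 and 1.27, SE 0.15), the growth factor Hgf (0.69 and 0.47, SE 0.12) and the hyaluronidase Hyal2 (0.47 and 0.35, SE 0.11) rose at both days, and the hyaluronan-degrading Cemip at day 12 (1.21, SE 0.21). The linker ezrin, Ezr, fell (-0.45 and -0.44, SE 0.11), and the hyaluronan receptor Hmmr fell at day 12 (-1.33, SE 0.22). Lyve1, the hyaluronan receptor of lymphatic vessels, fell at day 9 (-0.54) and rose at day 12 (0.63, SE 0.14).

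Relatives of the markers were called in both directions. Of 24 measured paralogues, 0 passed at day 6, 2 rose and 5 fell at day 9, and 5 rose and 1 fell at day 12, with medians of -0.05, 0.11 and 0.11. Over all genes, 12.6% rose and 17.1% fell at day 9, and 13.7% rose and 13.7% fell at day 12. The paralogue counts lie near those shares. In the family of Ly6a, Ly6d (2.60 and 1.67, SE 0.27) and Ly6g6c (1.99 and 2.39, SE 0.41) rose and Ly6g rose at day 12 (1.14, SE 0.23). Lrig3 fell (-1.23 and -0.87, SE 0.10) while Lrig1 did not pass. The epithelial connexins Gjb1 and Gjb2 fell at day 9 (-0.65 each) while Gja1 rose. Ly6 genes are a multigene family whose probes can share signal.

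**Figure D4:**
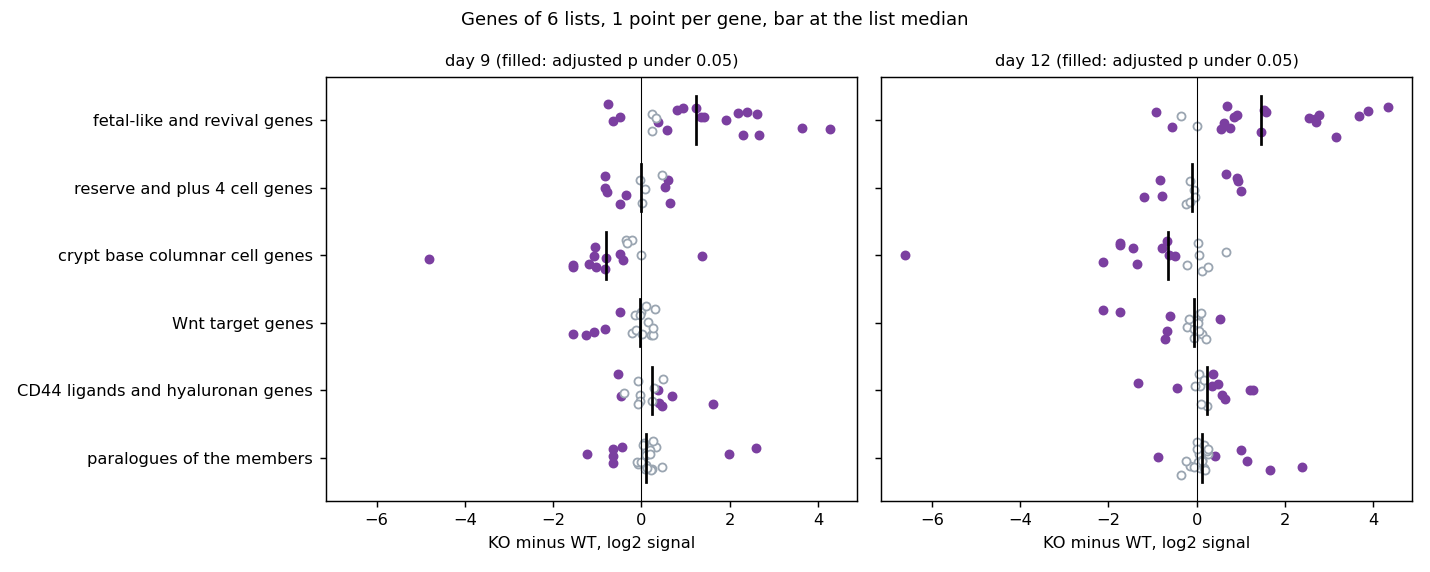
KO minus WT difference in log2 signal (horizontal axis) of the genes of 6 lists (vertical axis) at day 9 (left) and day 12 (right), 1 point per gene, filled where the limma adjusted p was under 0.05, with a bar at each list's median. The fetal-like list has its bar at 1.24 and 1.46 and the columnar stem cell list at -0.81 and -0.65, while reserve cell genes lie on both sides of 0.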

How the data were processed

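Biotin-labelled RNA from whole jejunum was run on Affymetrix Mouse Gene 1.0 ST arrays, as the labels' protocols describe. Signals were taken as the authors deposited them, on the log2 scale, for 35556 probe sets (array medians 5.95 to 6.02). Of software, limma and R 3.5 are listed per the submitters' processing notes. Steps of background correction and normalisation are not stated in the sources used. Through the platform's annotation, 21789 probe sets carried 1 symbol, 1621 several and 12146 are unnamed here. The highest-mean probe set per symbol gave 19938 genes. A mean per group was fitted to all 12 arrays with limma 3.58.1 in R 4.3.3 (6 residual and 5.23 prior degrees of freedom), and two-sided p-values were adjusted by Benjamini-Hochberg over all genes. The number of arrays limits the precision (median SE 0.11 at 1 day).

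The markers and gene lists were chosen with earlier results of these data known. Listed genes were named by the largest called differences, up to 3 per direction at days 9 and 12, and profile matches as the top 3 per marker. The permutation tests exchanged genotype within days (216 arrangements). The labels name no litter, cage or array batch. On simulated data of 19938 genes, 58.8% of 1.5-fold, 89.9% of 2-fold and 99.4% of 4-fold changes at 1 day were called, with 5.6% of calls false. Only 200 genes were changed there, by the same amount on all days and with independent noise. In the data 29.7% and 27.3% of genes passed at days 9 and 12, and arrays differed in smooth muscle signal. These rates therefore do not describe those days. Alternatives covered scaling, a filter on dim genes, probe sets, variance model, replicate numbers, array weights, smooth muscle content and each array left out.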

Additional observations from a re-analysis of the deposited data

Results flagged for a closer look

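The KO minus WT difference itself differed between days for 3 markers, by limma's F test of the genotype by day interaction: Cd44 (adjusted p = 0.00198), Sox9 (adjusted p = 0.00452) and Msi1 (adjusted p = 0.00896). With the smooth muscle covariate, 2 markers were called by that test. The change of the Sox9 difference from day 6 to day 9 was then 0.79 (limma adjusted p = 0.27). The differences at days 6, 9 and 12 were 0.87, 1.53 and 1.85 for Cd44, -0.29, 0.61 and 1.10 for Sox9, and 0.16, 0.62 and 0.95 for Msi1 on the log2 scale.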

How the results depend on the processing

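The markers called were recounted under 23 other settings, 2 of them added after the data were seen. These 2, the B cell and follicle covariate and the removal of both WT arrays with the highest follicle signal, were chosen with the Clu values in view, and the arrays removed were the WT arrays with the highest Clu, so they give Clu no support. Cd44 and Msi1 at days 9 and 12, Sox9 at day 12 and Gja1 at day 9 passed in 23 of 23. For KO against WT at day 6, 0 members were called with the smooth muscle list as a covariate. At day 12, 3 members were called with array weights and 3 with the smooth muscle covariate. The interaction was called for 3 members as reported, for 2 with the smooth muscle covariate and for 5 with the B cell and follicle covariate. For day 9 against day 6 in KO, 3 members were called with each array centred on its median, 3 with array weights and 1 with the smooth muscle covariate. For day 12 against day 9 in KO, 1 member was called with quantile normalization, 1 with array weights and 1 with the arrays compared alone. With each array left out in turn, the members called ran from 3 to 5 at day 9, 3 to 5 at day 12, 1 to 5 for day 9 against day 6 in KO and 0 to 2 for day 12 against day 9 in KO. The labels do not say whether the replicate numbers pair the arrays. Deviations of same-numbered arrays correlated at -0.15 to 0.35 over 15 group pairs, 4 of them over 0.1, which does not settle whether they are paired. With a replicate block, 5 members were called at day 9, 5 at day 12, 4 by interaction and 4 for day 9 against day 6 in KO. Averaged over days, Clu was called in 13 of 22 settings. That count includes both settings chosen with the Clu values in view, so it overstates how firm the call is.

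Differences that changed sign were called neither before nor after. At day 6 these were Msi1 (-0.029), Lrig1 (0.33) and Prom1 (-0.026) with the smooth muscle covariate, Prom1 with quantile normalization (-0.022) and with the follicle covariate (-0.034), and, without both WT arrays of high follicle signal, Clu (0.41), Prom1 (-0.14) and Gja1 (-0.15). The change of the difference from day 6 to day 9 turned for Lrig1 with quantile normalization (0.026) and without both WT arrays (0.063). The change from day 9 to day 12 turned for Clu with the follicle covariate (0.94) and without both WT arrays (0.55), and for Lrig1 with median centring (0.024). From day 9 to day 12 in KO, Lrig1 was -0.087 with quantile normalization, -0.24 with the smooth muscle covariate and -0.0055 with the follicle covariate, and Gja1 was 0.0020 with median centring. The cause was not tested.

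Over all genes, with whole settings changed, counts that moved by more than 1.5 times were, for KO against WT at day 6, 205 as reported against 415 with array weights, 17 with the smooth muscle covariate, 132 with the follicle covariate and 73 without both WT arrays, and at day 12, 5452 against 3581 without both WT arrays. The interaction gave 3685 genes against 1766 with the smooth muscle covariate and 1698 without both WT arrays. Day 9 against day 6 in KO gave 4890 against 2025 with the smooth muscle covariate and 3113 with the arrays compared alone, and day 12 against day 9 gave 4573 against 2374 with array weights and 2741 with the arrays compared alone. The F test in WT gave 4 genes, and 0 to 10 under these settings. With each array left out in turn, all genes called ran from 21 to 291 at day 6, 3646 to 6542 at day 9 (5917 as reported), 3740 to 5557 at day 12, 2191 to 4667 for the interaction, 2315 to 5633 for day 9 against day 6 in KO, 2028 to 5529 for day 12 against day 9 in KO and 0 to 8 in WT.

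With single arrays left out, differences that turned ran as follows. At day 6, Clu ran from -1.63 to 0.41, Lrig1 from -0.21 to 0.10, Prom1 from -0.14 to 0.15 and Gja1 from -0.15 to 0.34. Lrig1 ran from -0.31 to 0.018 at day 9 and from -0.37 to 0.042 at day 12, and Prom1 from -0.066 to 0.40 at day 12. The change of the difference from day 6 to day 9 ran from -0.26 to 0.072 for Lrig1. That from day 9 to day 12 ran from -1.26 to 0.55 for Clu, -0.22 to 0.19 for Lrig1 and -0.39 to 0.075 for Prom1. In KO, Lrig1 ran from -0.33 to 9e-04 for day 9 against day 6, and for day 12 against day 9 Lrig1 ran from -0.20 to 0.21, Prom1 from -0.36 to 0.10 and Gja1 from -0.14 to 0.028.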
